A study of Mus musculus with 31 samples.

Results

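The Fc receptor genes encode receptors for the constant (Fc) part of IgG and the signalling chain that some of them share. Here 6 of these genes were followed in mouse brain: *Fcgr1*, *Fcgr2b*, *Fcgr3*, *Fcgr4*, *Fcer1g* and *Fcgrt*. They were chosen by name, with no measured value in the rule but with earlier results of these data known. The choice was made from 48795 genes in a table of hippocampi and 54532 genes in a table of cultured microglia. All 6 were present in both tables. After the filter on low counts, 5 of the 6 were among 16453 genes tested in hippocampi, where *Fcgr4* was too low to test, and all 6 were among 13675 genes tested in microglia.

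Receptors for IgG let macrophages and microglia, the resident macrophages of the brain, bind antibody-coated material, take it up and respond to it. FcγRI (*Fcgr1*) binds IgG with high affinity, whereas FcγRIII (*Fcgr3*) and FcγRIV (*Fcgr4*) have lower affinity and bind immune complexes; all are activating receptors that signal through the common γ chain, encoded by *Fcer1g*, whose cytoplasmic ITAM is phosphorylated by Src-family kinases and then recruits SYK. FcγRIIB (*Fcgr2b*) carries its own inhibitory motif (ITIM), which recruits the phosphatase SHIP1 and restrains the activating receptors, and FcRn (*Fcgrt*), an MHC class I-like protein that pairs with β2-microglobulin, carries IgG through cells and protects it from degradation.

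RNA was sequenced in 13 libraries of hippocampus, 1 per mouse, and 18 libraries of primary microglia. The hippocampi came from 6 *P301S* mice, carriers of a transgene for mutant human tau driven by the prion promoter, and from 7 non-transgenic (Ntg) mice, aged 8 to 9 months by the labels, while the study's methods also give a slightly older age at collection. Each genotype held 3 female mice, with 3 male *P301S* mice and 4 male Ntg mice, and the *Cgas* genotype of these mice is not given in the sources used here. The microglia were grown from newborn cortex of wild-type (*Cgas*+/+) or *Cgas* knockout (*Cgas*-/-) mice, expanded in mixed glial culture with GM-CSF and shaken off, so that every group shared this preparation. They received vehicle, tau fibrils at 2 µg per ml or herring testis DNA (HT-DNA), a ligand of the cytosolic DNA sensor cGAS, at 1 µg per ml, and RNA was taken after 6 h, with 3 libraries in each of the 6 groups. Nothing in the labels says that the libraries of a group came from separate cultures. The study's legends describe 3 biologically independent samples for counts of single genes in these cells, without saying what was independent. The p-values for microglia therefore measure only the spread between these libraries. Nothing says, either, that the cultures of the 2 genotypes were prepared side by side, so genotype and culture preparation cannot be told apart.

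Total counts were 25953296 to 35779977 per hippocampus and 17037459 to 25174764 per microglial library. Levels are given below as normalised CPM, each library's share of the total count after TMM scaling, which do not account for transcript length and are compared only within a gene. *Mapt* averaged 572 CPM in Ntg and 997 CPM in *P301S* hippocampi. *Cgas* averaged 23.2, 34.0 and 41.0 CPM with vehicle, tau and HT-DNA in *Cgas*+/+ microglia and 4.93, 7.11 and 3.96 CPM in *Cgas*-/- microglia. The cultures held the 7 pan-myeloid markers *Csf1r*, *Aif1*, *Itgam*, *Ptprc*, *Cd68*, *Laptm5* and *Ctss* at a summed 6068 to 9212 CPM, and the 7 markers of resting microglia at 145.4 to 486.7 CPM. Most of the latter sum was *Cx3cr1*, at 108 to 448 CPM. *Sall1* was at 12.2 to 17.7, *Tmem119* at 8.8 to 19.2, *P2ry12* at 4.57 to 19.1 and *Gpr34* at 1.58 to 10.6 CPM, with *Slc2a5* and *Siglech* at no more than 0.46 and 0.273 CPM.

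In the GRCm38 build named in the submitters' processing notes, *Fcgr2b* (chr1:170958617-170976547, minus strand), *Fcgr4* (chr1:171018920-171029761, plus strand), *Fcgr3* (chr1:171051174-171064935, minus strand) and *Fcer1g* (chr1:171229572-171234365, minus strand) are neighbours on chromosome 1. *Fcgr1* is at chr3:96282909-96293969 and *Fcgrt* at chr7:45092990-45103851, both on the minus strand. *Fcgr2b* and *Fcgrt* each overlap an annotated antisense gene (Gm38204 and Gm45669), and *Fcgr3* and *Fcgr4* each hold a small RNA gene (Mir6546 and Gm26110). Whether counting used the strand is not given in the sources used here, so reads of *Fcgr2b* and *Fcgrt* cannot be separated from antisense reads over the same bases.

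*Fcgr2b* and *Fcgr3* are close paralogs with opposite signalling roles, and this bears on how far their values can be read separately. Their coding sequences were identical at 679 of 785 aligned bases (86.5%), while every other pair among *Fcgr1*, *Fcgr2b*, *Fcgr3* and *Fcgr4* was between 64% and 67.2% identical. Of the 50-base stretches of the longest *Fcgr3* transcript, 166 of 1298 (12.8%) also occurred in *Fcgr2b*. Of those of *Fcgr2b*, 397 of 3495 (11.4%) occurred in any of 47 other genes, and 166 of the 397 occurred in *Fcgr3*. None in the last 500 bases of either gene was shared. The longest run common to both lies at coding bases 278 to 406 of *Fcgr2b* and 263 to 391 of *Fcgr3* (GENCODE vM21), all 129 bases being the same, and reads that fall inside it cannot be assigned to either gene:

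Shared by *Fcgr2b* and *Fcgr3*: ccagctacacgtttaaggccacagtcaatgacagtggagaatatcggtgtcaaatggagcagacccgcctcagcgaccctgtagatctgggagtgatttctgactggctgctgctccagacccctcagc

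The promoters of the activating receptor genes are shown because those genes moved most with treatment in microglia. All 6 genes had an entry in RefSeq (GRCm38.p6), and the 250 bases before each annotated start were searched on both strands for TTCNNNGAA (the core of a GAS element), GAAANNGAA (resembling the ISRE bound by interferon-induced factors) and GAGGAA (resembling a PU.1 site). Capitals mark the matches, in the gene's own 5′ to 3′ direction, and TTCCTC is GAGGAA on the other strand.

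*Fcgr1*, chr3:96293970-96294219, minus strand: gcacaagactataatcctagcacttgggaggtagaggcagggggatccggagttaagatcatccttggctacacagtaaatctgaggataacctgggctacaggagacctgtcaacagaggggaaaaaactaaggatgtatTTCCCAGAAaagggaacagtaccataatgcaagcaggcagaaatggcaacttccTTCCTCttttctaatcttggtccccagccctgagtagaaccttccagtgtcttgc

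*Fcgr4*, chr1:171018676-171018925, plus strand: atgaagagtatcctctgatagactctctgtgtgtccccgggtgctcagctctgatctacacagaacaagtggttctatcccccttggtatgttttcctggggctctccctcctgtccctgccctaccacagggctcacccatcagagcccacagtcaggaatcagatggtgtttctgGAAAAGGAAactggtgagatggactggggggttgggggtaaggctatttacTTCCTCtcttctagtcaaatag

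*Fcgr3*, chr1:171059404-171059653, minus strand: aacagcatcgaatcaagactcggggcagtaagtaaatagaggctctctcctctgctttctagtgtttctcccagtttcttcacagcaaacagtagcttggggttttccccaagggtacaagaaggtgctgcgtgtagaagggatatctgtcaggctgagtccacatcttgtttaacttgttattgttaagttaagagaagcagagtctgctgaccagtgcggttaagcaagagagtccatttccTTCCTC

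The window of *Fcgr1* held TTCCCAGAA beginning 109 bases before the start, and that of *Fcgr4* held GAAAAGGAA beginning 73 bases before it. The PU.1-like letters began 55, 22 and 6 bases before the starts of *Fcgr1*, *Fcgr4* and *Fcgr3*. RefSeq holds another start of *Fcgr3*, whose window is not printed, and there the same letters began 15 bases before it. Both *Fcgr3* windows lie inside the gene span given above, which comes from a different annotation and begins further upstream. The windows of *Fcgr2b*, *Fcer1g* and *Fcgrt* held none of these letters. Among 32851 RefSeq promoters of the same length, 7.02% held TTCNNNGAA, 7.13% held GAAANNGAA and 23.3% held GAGGAA, and a match describes the letters in the window, not a bound site.

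To see how Fc receptor expression responded to pathogenic tau, *Cgas*+/+ microglia given fibrils were compared with those given vehicle. Tau raised 3 of the 6 genes (*Fcgr1*, *Fcgr4* and *Fcer1g*), lowered *Fcgr3* and left *Fcgr2b* and *Fcgrt* without a detected change. A change was called at an adjusted p under 0.05 in edgeR's quasi-likelihood test, with Benjamini-Hochberg adjustment over all genes tested. Of all genes, 15.8% were called higher and 12.2% lower, and the median log2 fold change was 0.11 over the 6 genes and -0.01 over all genes.

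Transcripts of the high-affinity receptor, *Fcgr1*, stood at 221, 168 and 198 CPM with vehicle and at 429, 357 and 421 CPM with tau. Every tau library was above every vehicle library. The difference was 1.04 on the log2 scale (SE 0.0776, adjusted p = 1.53e-11), or 2.06-fold, with a 95% interval of 0.88 to 1.20.

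*Fcgr4*, the other strongly rising activating receptor, stood at 27.6, 24.4 and 25.8 CPM with vehicle and 51.2, 39.7 and 56.8 CPM with tau. The groups did not overlap, and the lowest tau library lay well apart from the other two. The log2 fold change was 0.92 (SE 0.105, adjusted p = 4.51e-08), a 1.90-fold rise.

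*Fcgr3* moved in the opposite direction to the other activating receptors. It stood at 505, 501 and 533 CPM with vehicle and at 384, 395 and 389.8 CPM with tau. All tau libraries were below all vehicle libraries, and the gene fell by 0.40 on the log2 scale (SE 0.0365, adjusted p = 8.29e-10).

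*Fcer1g*, the γ chain shared by these receptors, stood at 533, 509 and 543 CPM with vehicle and 610.2, 572 and 587 CPM with tau. The groups did not overlap but lay close together. The rise was 0.16 on the log2 scale (SE 0.0405, adjusted p = 0.00343), or 1.12-fold, far below that of *Fcgr1*.

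The inhibitory receptor, *Fcgr2b*, stood at 336, 354 and 373 CPM with vehicle and 362, 368 and 379.6 CPM with tau. These groups overlapped, with a log2 difference of 0.06 (95% interval -0.03 to 0.16, adjusted p = 0.343). *Fcgrt* also overlapped between the groups, at 59.7 to 65.9 CPM with vehicle and 60.1 to 60.96 CPM with tau, and its log2 difference of -0.04 had an interval of -0.16 to 0.08 (adjusted p = 0.644). For every *Fcgr2b* count there were 1.42 to 1.5 *Fcgr3* counts with vehicle and 1.03 to 1.07 with tau, without overlap. The ratio to *Fcgr2b* went the other way for *Fcgr1* (0.476 to 0.656 with vehicle and 0.971 to 1.19 with tau). It also rose for *Fcgr4* (0.0691 to 0.0819 with vehicle and 0.108 to 0.15 with tau).

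**Figure D1:**
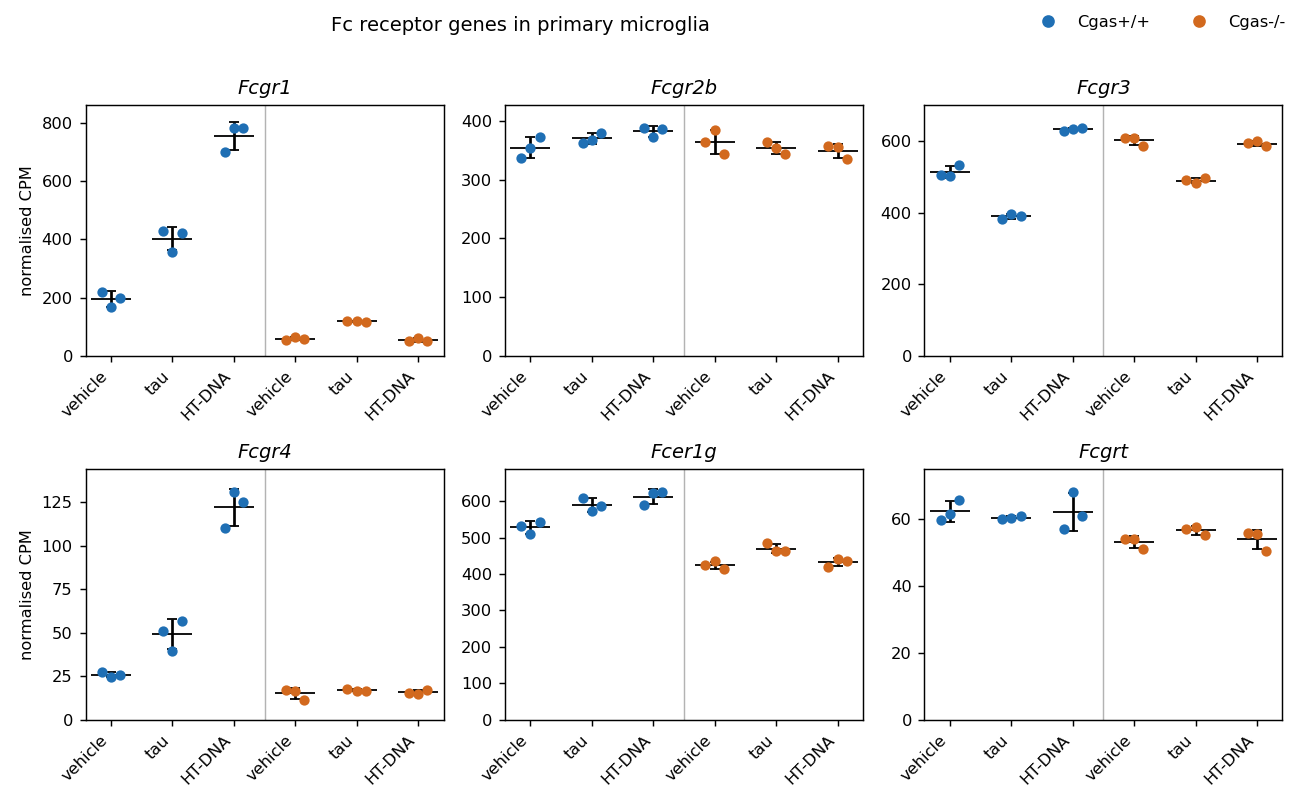
Levels of the 6 Fc receptor genes in primary microglia, in normalised CPM on linear axes that start at 0, for vehicle, tau and HT-DNA in *Cgas*+/+ (blue) and *Cgas*-/- (orange) libraries. Points are libraries, and bars are the mean and SD of 3 libraries. *Fcgr1* and *Fcgr4* stand highest with HT-DNA in *Cgas*+/+ microglia and lowest in the *Cgas*-/- groups, *Fcgr3* is lowest with tau in both genotypes, and *Fcgr2b* and *Fcgrt* stay within a narrow range.

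The genes that act with these receptors were read from lists chosen by function. Of 20 genes of ITAM and ITIM signalling, 9 rose and 2 fell with tau (list median 0.05 on the log2 scale). Among those with the smallest p were the Src-family kinase *Lyn* (log2 fold change 0.82), the kinase *Syk* (0.44) and the PI3-kinase subunit *Pik3cd* (0.53), all higher. Of 10 genes of the phagocytic oxidase and actin machinery, 5 rose and 1 fell (median 0.10), led by the oxidase components *Cybb* (0.63), *Ncf4* (0.54) and *Ncf1* (0.45) and by *Rac2* (0.32), a GTPase of oxidase assembly. Of 4 other Fc receptor or Fc receptor-like genes that could be tested, *Trim21*, the cytosolic antibody receptor, rose (0.83) and *Fcrls*, an Fc receptor-like microglial gene, fell by 0.18. Of 6 genes of the MHC class I family and its light chain, 3 rose and 2 fell, with *H2-K1* at 0.51 and *B2m*, the partner chain of FcRn, at 0.31. None of the 9 immunoglobulin genes listed passed the filter on low counts, and their summed level was at most 0.2592 CPM in any microglial library. Marker lists moved with tau as well. From vehicle to tau, the 8 disease-associated microglial genes summed to 42230 to 42590 and 36270 to 37400 CPM, the 7 markers of resting microglia to 396.8 to 415.1 and 469 to 486.7 CPM, the 6 border macrophage markers to 413 to 432 and 482.5 to 514.3 CPM, and the pan-myeloid genes to 7841 to 8208 and 8376 to 8620 CPM. Their part in the receptor values was not tested.

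The DNA ligand was used as a direct stimulus of cGAS. In *Cgas*+/+ microglia HT-DNA raised 4 of the 6 genes, all activating receptors and the γ chain, and lowered none. Among all genes, 22.8% were called higher and 24.7% lower, with a median log2 fold change of -0.03, against 0.26 over the 6 genes. The tau and HT-DNA comparisons used the same vehicle libraries, so their values are set side by side only.

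*Fcgr1* reached 698, 779.9 and 781 CPM with HT-DNA. These were the highest *Fcgr1* levels of any group, with a log2 fold change over vehicle of 1.94 (SE 0.0787, adjusted p = 1.58e-17), or 3.85-fold. *Fcgr4* reached 111, 131 and 125 CPM, a log2 fold change of 2.24 (SE 0.101, adjusted p = 1.15e-16), or 4.71-fold. For both genes, no HT-DNA library came near a vehicle or tau library.

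*Fcgr3* was at 628, 634 and 636 CPM, narrowly spread and above the vehicle libraries, with a log2 fold change of 0.30 (SE 0.0363, adjusted p = 5.90e-08). *Fcer1g* was at 589, 623 and 626 CPM and rose by 0.21 on the log2 scale (SE 0.0405, adjusted p = 7.28e-05). *Fcgr2b* was at 388, 372 and 386 CPM, a log2 difference of 0.11 with a 95% interval of 0.02 to 0.20 and an adjusted p of 0.0508. That *Fcgr2b* difference is at the threshold, and its adjusted p was 0.00514 in DESeq2. *Fcgrt*, at 57.1 to 68.3 CPM, differed from vehicle by -0.01 (interval -0.12 to 0.11, adjusted p = 0.951), a difference whose sign changed with the scaling.

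Compared directly with each other, tau gave lower levels than HT-DNA for 3 of the 6 genes and higher levels for none (17.8% and 17.1% of all genes). The log2 differences were -1.31 for *Fcgr4* (adjusted p = 8.46e-12), -0.90 for *Fcgr1* (1.72e-10) and -0.70 for *Fcgr3* (1.21e-14). No difference between the ligands was detected for *Fcer1g* (-0.05, interval -0.14 to 0.03), *Fcgr2b* (-0.05, interval -0.14 to 0.05) or *Fcgrt* (-0.04, interval -0.16 to 0.08). Counts of *Fcgr3* per *Fcgr2b* count were 1.62 to 1.71 with HT-DNA, above both other *Cgas*+/+ groups.

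Of the signalling genes, 14 of 20 rose and 3 fell with HT-DNA (median 0.19), with *Lyn* at 1.603, *Pik3cd* at 0.73 and the ITIM-binding phosphatase *Ptpn6* at 0.50. Oxidase and actin genes split into 4 higher and 2 lower of 10 (median 0.02). *Trim21* rose by 1.04, and 3 of 6 MHC class I genes rose. Among marker lists for other cells, the summed level of the 5 endothelial genes was 276 to 279.5 CPM with HT-DNA against 87.17 to 98.28 CPM with vehicle. Nearly all of it came from *Flt1*, which reached 277 CPM, while *Cldn5*, *Pecam1* and *Slco1a4* were never above 0.598 CPM. The 5 monocyte genes summed to 12.87 to 17.64 CPM with HT-DNA, 5.246 to 8.294 CPM with tau and 2.076 to 3.67 CPM with vehicle. *Vcan* carried that sum, and *Ly6c2* was at no more than 0.126 CPM and *Plac8* at no more than 0.054 CPM in any culture.

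*Cgas*-/- microglia were studied to ask which responses need cGAS. With vehicle alone they already differed from *Cgas*+/+ microglia in 5 of the 6 genes, with 4 lower and 1 higher. Over all genes 27.3% were called lower and 24.7% higher, and the median was -0.27 over the 6 genes against -0.01 over all genes. The high-affinity receptor was the most reduced.

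*Fcgr1* was at 56.1, 64.9 and 57.8 CPM in vehicle-treated *Cgas*-/- microglia. Every library was far below its *Cgas*+/+ counterparts, with a log2 difference of -1.72 (SE 0.0834, adjusted p = 5.22e-16). *Fcgr4* was at 17.2, 16.5 and 11.6 CPM, a difference of -0.79 (SE 0.120, adjusted p = 2.88e-06), and *Fcer1g* was at 424, 435 and 414 CPM, a difference of -0.32 (adjusted p = 1.91e-07). *Fcgrt* was at 54.3, 54.1 and 51.1 CPM, lower by a smaller amount (-0.23, adjusted p = 0.00141).

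*Fcgr3* was the exception, at 609.5, 609 and 587 CPM and higher than in *Cgas*+/+ microglia by 0.23 (adjusted p = 5.33e-06). *Fcgr2b*, at 364, 385 and 344 CPM, overlapped with *Cgas*+/+ and differed by 0.04 (interval -0.05 to 0.13, adjusted p = 0.485). The vehicle cultures of the 2 genotypes thus differed in the mix of activating receptor transcripts, while the inhibitory receptor differed by less than the spread.

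Other markers of the cultures moved with genotype as well. Across all treatments, the pan-myeloid sum was 6068 to 6598 CPM in *Cgas*-/- against 7841 to 9212 CPM in *Cgas*+/+ libraries. The sum of 7 markers of resting microglia was 145.4 to 227 against 357.6 to 486.7 CPM, that of 6 border macrophage markers 203.9 to 254.5 against 413 to 514.3 CPM, and that of the 8 disease-associated microglial genes 45840 to 54470 against 36270 to 49260 CPM. Endothelial genes summed to 20.63 to 28.25 CPM in *Cgas*-/- microglia, again nearly all *Flt1*. The part of these culture differences in the receptor values was not tested.

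With tau, *Cgas*-/- microglia were lower than *Cgas*+/+ for 3 genes and higher for 1 of the 6 (26.2% and 25.2% of all genes, with medians of -0.21 over the 6 and 0.01 over all genes). The differences were -1.76 for *Fcgr1* (adjusted p = 1.58e-16), -1.55 for *Fcgr4* (1.65e-12) and -0.33 for *Fcer1g* (1e-07), and 0.33 for *Fcgr3* (1.30e-08). *Fcgr2b* (-0.07, interval -0.16 to 0.03) and *Fcgrt* (-0.10, interval -0.21 to 0.02) were not called.

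With HT-DNA, all 6 genes were lower in *Cgas*-/- microglia and 0 were higher (30.1% and 33.1% of all genes, with medians of -0.35 and 0.05). *Fcgr1* differed by -3.77 (adjusted p = 9.25e-24) and *Fcgr4* by -2.94 (1.55e-19). The others were smaller: -0.50 for *Fcer1g* (1.27e-11), -0.20 for *Fcgrt* (0.00332), -0.13 for *Fcgr2b* (0.0141) and -0.09 for *Fcgr3* (0.0254). These genotype comparisons share libraries with the treatment comparisons and are not independent of them. The *Fcgr3* and *Fcgr2b* calls did not survive testing without a filter on low counts (adjusted p = 0.240 and 0.0548).

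Signalling genes were lower in *Cgas*-/- microglia in 14 of 20 cases and higher in 3 with each treatment, the list medians being -0.26 with vehicle, -0.32 with tau and -0.57 with HT-DNA. The Src-family kinase *Fgr* was the strongest exception, higher by 2.55, 2.26 and 2.73, and the adaptor *Blnk* was lower, with log2 differences of -1.30, -1.33 and -1.81. With vehicle the SHIP1 gene *Inpp5d* was at -0.89 and *Src* at -1.14. Of the oxidase and actin genes, 8, 8 and 7 of 10 were lower and 1 higher in each comparison, led by *Ncf1* (-0.63, -0.63 and -0.86). *B2m* differed by -0.66, -0.62 and -0.92, lower each time. With vehicle, 3 of 4 other Fc receptor or Fc receptor-like genes were lower, with *Trim21* at -1.61.

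The treatment responses inside *Cgas*-/- microglia separated the genes further. Tau raised 2 genes and lowered 1 (11.2% and 5.48% of all genes, with medians of 0.12 and 0.01). *Fcgr1* rose to 119.6, 120.2 and 117 CPM, above every *Cgas*-/- vehicle library, by 0.999 on the log2 scale (SE 0.0835, adjusted p = 1.78e-10), or 1.998-fold. *Fcer1g* rose to 485, 462 and 463 CPM (0.15, SE 0.0406, adjusted p = 0.00998).

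*Fcgr3* was at 490.2, 483 and 496 CPM with tau in *Cgas*-/- microglia, below every *Cgas*-/- vehicle library, and fell by 0.30 on the log2 scale (SE 0.0363, adjusted p = 2.65e-07). *Fcgr4* was at 17.5, 16.5 and 16.5 CPM, overlapping with vehicle, with a log2 difference of 0.17 (SE 0.125, interval -0.09 to 0.43, adjusted p = 0.431). *Fcgr2b* (-0.04, interval -0.14 to 0.05) and *Fcgrt* (0.09, interval -0.03 to 0.21) were not called. Among the accompanying genes, 12 of 20 signalling genes rose and 1 fell, with *Syk* at 0.39, and 5 of 10 oxidase and actin genes rose and 2 fell, with *Cybb* at 0.67.

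HT-DNA changed none of the 6 genes in *Cgas*-/- microglia by edgeR, with 0 also at an unadjusted p under 0.05 and 0 by DESeq2 (1.04% of all genes were called higher and 0.278% lower, with medians of 0.001 over the 6 and 0.01 over all genes). *Fcgr1* was at 50.6, 61.7 and 53.04 CPM, overlapping with vehicle (-0.11, interval -0.29 to 0.07, adjusted p = 0.666). *Fcgr4* was at 15.6, 15.05 and 16.97 CPM (0.09, adjusted p = 0.861) and *Fcgr3* at 593, 599.8 and 586 CPM (-0.02, adjusted p = 0.884). Of the listed genes 0 were called by edgeR, and 6 of 20 signalling, 1 of 10 oxidase and actin, 1 of 4 other Fc receptor or Fc receptor-like and 1 of 6 MHC class I genes had an unadjusted p under 0.05. The share of all genes at that unadjusted threshold was not computed, so these unadjusted counts cannot be read against a background.

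The difference between the genotypes in each response was tested with an interaction term. For tau, it was called for 1 of the 6 genes, *Fcgr4*, lower in *Cgas*-/- microglia by a log2 difference of -0.75 (SE 0.164, adjusted p = 0.00396), and 0 of the 6 were called in the other direction. Of all genes 3.31% were called lower and 3.61% higher. For *Fcgr1* the difference in the tau response was -0.04 with an interval of -0.27 to 0.19 (adjusted p = 0.899), and for *Fcgr3* it was 0.10 (adjusted p = 0.281). *Fcer1g* (-0.01, interval -0.13 to 0.11), *Fcgr2b* (-0.11, interval -0.24 to 0.03) and *Fcgrt* (0.14, interval -0.03 to 0.30) were not called.

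For HT-DNA, 5 of the 6 genes had a lower response in *Cgas*-/- microglia and 0 a higher one (16.6% and 17.4% of all genes). The interaction was -2.15 for *Fcgr4* (SE 0.163, adjusted p = 2.80e-11) and -2.05 for *Fcgr1* (SE 0.116, adjusted p = 1.60e-13). It was -0.32 for *Fcgr3* (1.05e-05), -0.19 for *Fcer1g* (0.0126) and -0.17 for *Fcgr2b* (0.0408, kept when leaving out 5 of the 12 libraries, 1 at a time, and lost for the others). *Fcgrt* was not called (0.03, interval -0.14 to 0.20). The signalling genes followed with 10 of 20 lower and 2 higher, led by *Lyn* (-1.47), and with tau 2 of 20 were lower and 1 higher, with *Lyn* at -0.38, *Fgr* at -0.30 and *Inpp5d* at 0.26.

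**Figure D2:**
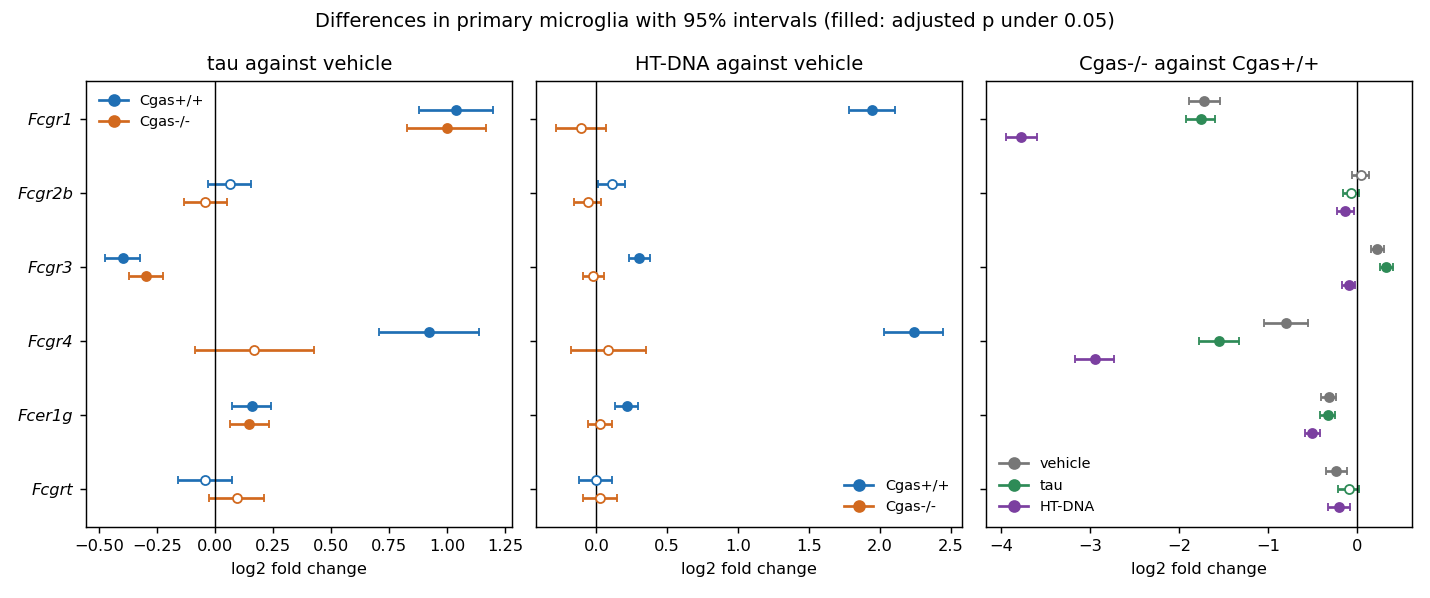
Log2 fold changes of the 6 genes in primary microglia with 95% intervals, for tau against vehicle (left) and HT-DNA against vehicle (middle) in each *Cgas* genotype, and for *Cgas*-/- against *Cgas*+/+ under each treatment (right). Filled points have an adjusted p under 0.05, and the horizontal scales differ between panels. *Fcgr1* sits near 1 with tau in both genotypes but at 1.94 and -0.11 with HT-DNA, whereas *Fcgr4* is displaced from 0 by either ligand only in *Cgas*+/+ microglia.

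Placed in order of level over the 6 groups, *Fcgr1* ran from HT-DNA to tau to vehicle in *Cgas*+/+ microglia and then to tau in *Cgas*-/- microglia, each step larger than the spread. The vehicle and HT-DNA groups of *Cgas*-/- microglia, at 59.6 ± 4.71 and 55.1 ± 5.85 CPM (SD, n = 3), did not differ beyond their spread. *Fcgr4* had the same 3 upper steps, and its 3 *Cgas*-/- groups, at 15.1 ± 3.05, 16.8 ± 0.576 and 15.9 ± 0.994 CPM with vehicle, tau and HT-DNA, did not differ from each other.

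For *Fcgr3* the top 3 groups, HT-DNA in *Cgas*+/+ and vehicle and HT-DNA in *Cgas*-/- microglia (633 ± 4.23, 602 ± 13.2 and 593 ± 6.85 CPM), had no step between neighbours called. The HT-DNA libraries of *Cgas*+/+ microglia nevertheless all lay above the vehicle libraries of *Cgas*-/- microglia (log2 difference 0.07, SE 0.0363, adjusted p = 0.0807), and tau in *Cgas*+/+ microglia (389.7 ± 5.90 CPM) was lowest. *Fcer1g* was higher in every *Cgas*+/+ than in every *Cgas*-/- group, at 529 to 613 against 424 to 469.9 CPM as group means. For *Fcgr2b* (349 to 382 CPM) and *Fcgrt* (53.2 to 62.4 CPM) no step between neighbouring groups was called.

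Across the 18 microglial libraries, which share these 6 groups, *Fcgr1* and *Fcgr4* varied together (Pearson r = 0.946 on log2 CPM), as did *Fcgr1* and *Fcer1g* (r = 0.981), while *Fcgr1* and *Fcgr3* did not (r = -0.248). Among all genes tested, those most like *Fcgr1* were *Themis2* (r = 0.998), *Ankle2* (0.997) and *Coro2a* (0.997), and those most like *Fcgr4* were *Rab21* (0.992), *Slc29a3* (0.989) and *Nono* (0.989). The nearest to *Fcgr3* were *Metrnl* (0.951), *Tbxas1* (0.948) and *Lgals3* (0.934), and the nearest to *Fcer1g* were *Slc7a8* (0.988), *Aif1* (0.988) and *B2m* (0.987). *Fcgr2b* and *Fcgrt*, which moved little, had weaker neighbours, *Gm13192* (0.837), *Atp9a* (0.820) and *Gatad2b* (0.811) for *Fcgr2b* and *Fggy* (0.868), *Sod1* (0.866) and *Slc39a11* (0.864) for *Fcgrt*. These values describe the pattern over groups and carry no test.

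In hippocampi, *P301S* mice were compared with Ntg mice to follow the same genes in tissue with tauopathy. Transcripts of *Fcgr2b* and *Fcgr3* were higher in *P301S* hippocampi, 2 of the 5 genes tested, and 0 were lower (1.39% of all genes were called higher and 0.122% lower). The fitted log2 fold changes of *Fcgr1*, *Fcgr2b*, *Fcgr3* and *Fcer1g* lay between 1.31 and 1.87, with *Fcgr1* and *Fcer1g* just missing the adjusted threshold. The median was 1.39 over the 5 genes and 0.001 over all genes. In bulk tissue, more cells of a type and more RNA per cell cannot be told apart.

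*Fcgr2b*, the inhibitory receptor, was at 3.03 to 3.86 CPM in Ntg hippocampi (median 3.27). In *P301S* hippocampi it ranged from 3.82 to 21.1 CPM (median 13.7). Of 6 *P301S* mice, 5 were above every Ntg mouse, 1 of them only just, and the sixth lay within the Ntg range. The log2 fold change was 1.87 (SE 0.343, adjusted p = 0.0303), from 3.30 ± 0.269 CPM (SD, n = 7) to 12.04 ± 6.95 CPM (SD, n = 6), and a two-sided exact permutation test of log2 CPM for this gene alone gave p = 0.00117, the smallest possible being 0.000583.

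*Fcgr3* was at 9.02 to 11.5 CPM in Ntg hippocampi (median 9.63) and at 8.24 to 38.2 CPM in *P301S* hippocampi (median 26.3). Here 4 of 6 *P301S* mice exceeded all Ntg mice. The log2 fold change was 1.31 (SE 0.299, adjusted p = 0.0444, exact permutation p = 0.0134).

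*Fcer1g* was at 6.56 to 10.2 CPM (median 8.26) in Ntg and 6.14 to 38.9 CPM (median 24.6) in *P301S* hippocampi, and *Fcgr1* at 2.36 to 3.73 (median 2.81) and 1.82 to 13 CPM (median 8.49). For each, 4 of 6 *P301S* mice exceeded all Ntg mice and the lowest *P301S* mouse was below them all. Their log2 fold changes were 1.503 (SE 0.355, adjusted p = 0.0510, exact permutation p = 0.0210) and 1.39 (SE 0.353, adjusted p = 0.0615, exact permutation p = 0.0332). The 95% intervals of 0.74 to 2.26 and 0.64 to 2.15 overlap those of the called genes, and DESeq2 called both.

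*Fcgr4* gave only 1 to 12 counts per Ntg hippocampus and 9 to 103 per *P301S* hippocampus, or 0.0330 to 0.443 and 0.297 to 3.90 CPM (medians 0.119 and 1.47). It was removed by the filter on low counts. In the exact permutation test for this gene alone, chosen for its low counts after the filter was applied, p was 0.00291, with 4 of 6 *P301S* mice above all Ntg mice. *Fcgrt* was at 13 to 22.8 CPM (median 13.5) in Ntg and 13.7 to 20.1 CPM (median 14.7) in *P301S* hippocampi, overlapping throughout, with a log2 difference of 0.13 (interval -0.19 to 0.44, adjusted p = 0.754, exact permutation p = 0.336).

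**Figure D3:**
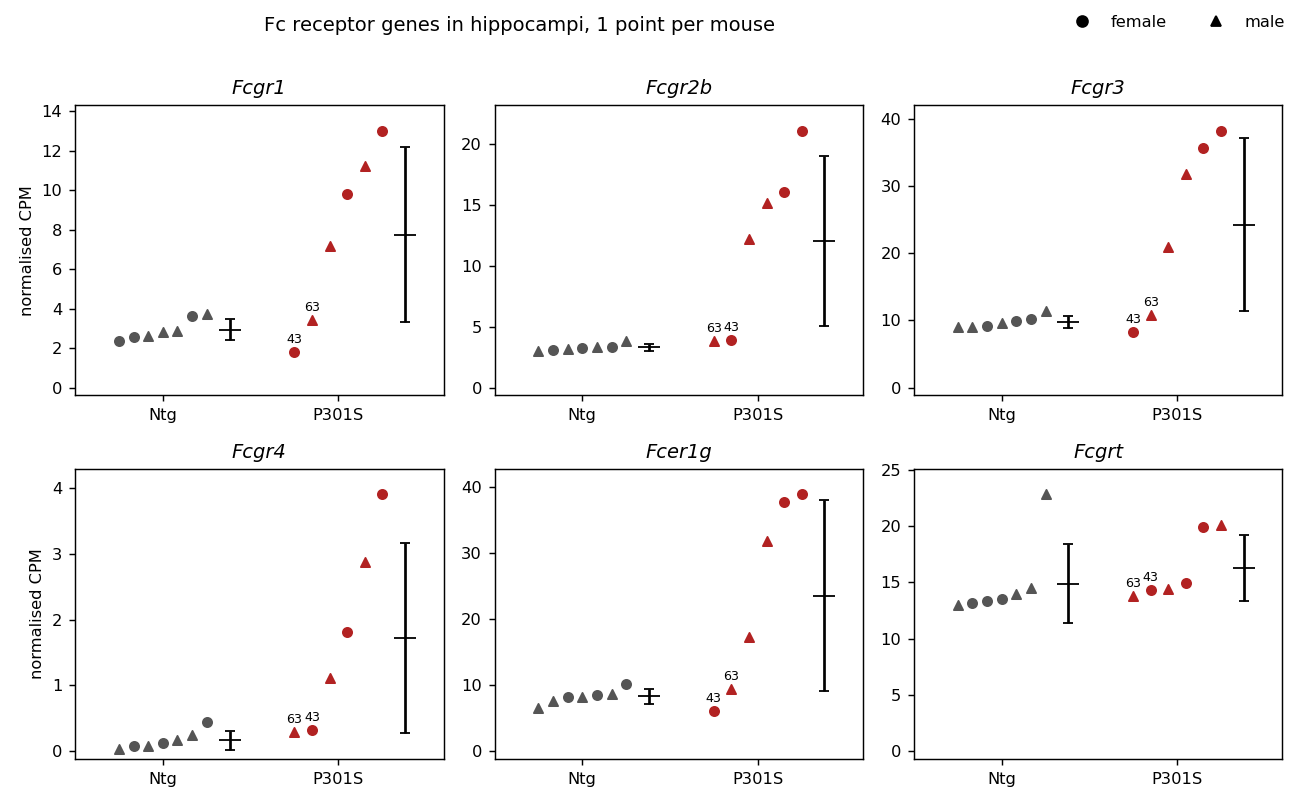
Levels of the 6 Fc receptor genes in normalised CPM in hippocampi of 7 Ntg and 6 *P301S* mice, with each mouse as a point (circles female, triangles male, sorted by level) and the mean and SD as bars, on linear axes that differ between panels. For the genes other than *Fcgrt*, 4 or 5 of the 6 *P301S* mice lie above all Ntg mice and the others lie among or near them.

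The spread within the *P301S* group ran in the same mice for each gene. Mouse 43 and mouse 63 had 1.82 and 3.43 CPM of *Fcgr1*, 3.89 and 3.82 CPM of *Fcgr2b*, 8.24 and 10.8 CPM of *Fcgr3*, and 6.14 and 9.50 CPM of *Fcer1g*. All of these lay within or just outside the Ntg range, and mouse 43 was female and mouse 63 male. Their pan-myeloid sums, 230.7 and 263.4 CPM, also lay in the Ntg range of 220.2 to 265.4 CPM, whereas the other *P301S* mice had 440 CPM (mouse 77), 753.8 CPM (mouse 36), 758 CPM (mouse 29) and 791.4 CPM (mouse 65).

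The calls depended on single mice. Leaving out *P301S* mouse 43 or *P301S* mouse 63 gave 5 of 6 genes called, namely *Fcgr1*, *Fcgr2b*, *Fcgr3*, *Fcer1g* and *Fcgr4*. *Fcgr4* passed the filter only once a low *P301S* mouse was left out, so its call is not counted as support. Leaving out *P301S* mouse 77 gave 3 and Ntg mouse 55 gave 1, whereas leaving out any other mouse (Ntg 35, 46, 61, 62, 68 or 71, or *P301S* 29, 36 or 65) gave 0 by edgeR. Calls over all genes moved with them, numbering 946 and 691 without mouse 43 or 63, 462 without mouse 77, 216 without mouse 55 and 14 to 26 without the others, against 249 with every mouse, so the swing was not particular to the Fc receptor genes. In those tests *Fcgr2b* ranged from 1.63 to 2.05 with adjusted p of 0.00140 to 0.0859, and *Fcgr3* from 1.14 to 1.49 with adjusted p of 0.00267 to 0.124. A sex-by-genotype term was called by edgeR for 0 of the 5 genes and 0% of all genes, and 0 of the 5 had an unadjusted p under 0.05 or were called by DESeq2. Over all genes DESeq2 called 1092 of 16453 for that term, and edgeR called 1648 of 16558 without *P301S* mouse 29.

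**Figure D4:**
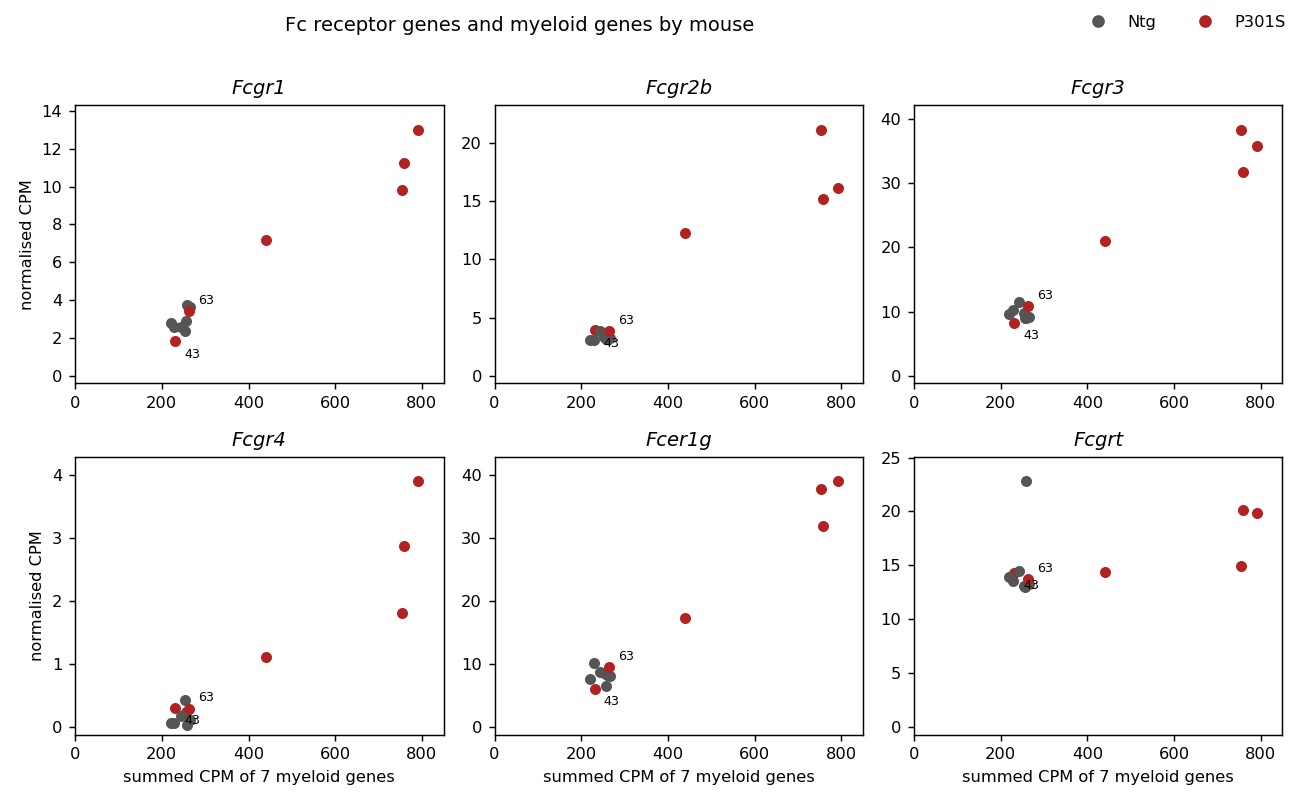
Level of each Fc receptor gene in normalised CPM (vertical axes) against the summed CPM of 7 pan-myeloid genes (horizontal axes) in the same hippocampus, for Ntg (grey) and *P301S* (red) mice, with *P301S* mice 43 and 63 labelled. The Ntg mice and the labelled mice cluster near sums of 220 to 265 CPM, the other *P301S* mice lie at 440 to 791 CPM with higher receptor levels, and *Fcgrt* varies little along the axis.

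To read the receptors beside the other myeloid transcripts, each was also expressed as a percentage of the pan-myeloid sum in the same mouse, and the activating genes as a ratio to *Fcgr2b*. These 10 comparisons were chosen after the values were seen, and their exact permutation p-values were adjusted over the 10. *Fcgr2b* rose from 1.34% ± 0.122 in Ntg (SD, n = 7) to 2.12% ± 0.558 in *P301S* mice (SD, n = 6), with 5 of 6 above all Ntg mice (exact permutation, adjusted p = 0.00874). *Fcgr4* rose from 0.0668% ± 0.0552 to 0.270% ± 0.145, with 4 of 6 above (adjusted p = 0.0155, exact permutation). That gene had been removed by the low-count filter, with only 1 to 12 counts per Ntg hippocampus. Its log2 values here had no prior count added, so such low counts weigh heavily in the difference.

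*Fcgr1* (1.19% and 1.36%), *Fcgr3* (3.99% and 4.37%) and *Fcer1g* (3.39% and 4.05%) overlapped between genotypes on this scale, with adjusted exact permutation p-values of 0.364, 0.239 and 0.197. *Fcgrt* was 6.04% of the sum in Ntg and 3.64% in *P301S* mice (adjusted p = 0.0315, exact permutation), but its own level did not fall (14.9 and 16.2 CPM on average), and the lower share reflects the larger sum (median 253.4 and 596.9 CPM). *Fcgr3* counts per *Fcgr2b* count averaged 2.97 ± 0.202 in Ntg and 2.13 ± 0.396 in *P301S* mice, and 5 of 6 *P301S* mice were below all Ntg mice (adjusted p = 0.00874, exact permutation). *Fcer1g* per *Fcgr2b* also fell, from 2.53 to 1.97 (adjusted p = 0.0408, exact permutation). *Fcgr1* per *Fcgr2b* went from 0.898 to 0.661 without passing (adjusted p = 0.0574, exact permutation). *Fcgr4* per *Fcgr2b* rose from 0.0503 to 0.128 (adjusted p = 0.0315, exact permutation), limited by the same 1 to 12 *Fcgr4* counts per Ntg hippocampus.

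The accompanying genes in hippocampi rose or were not called. Of 19 signalling genes tested, 6 were higher and 0 lower (list median 0.67 on the log2 scale), with the ITAM adaptor *Tyrobp* at 1.997 (SE 0.377), the adaptor *Lat2* at 1.92, *Vav1* at 1.19 and *Lyn* at 1.01. Of 10 oxidase and actin genes, 5 were higher (median 1.34), with *Cybb* at 4.09 (adjusted p = 0.0262), and *Rac2* and *Dock2* each at 1.35. Of the MHC class I family 3 of 6 were higher, *H2-D1* by 2.64 (adjusted p = 0.00216), *H2-K1* by 1.95 and *B2m* by 1.48 (adjusted p = 0.0343), whereas *Fcgrt*, whose protein pairs with that chain, was not.

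The other Fc receptor or Fc receptor-like genes gave 0 of 3 calls by edgeR and 2 of 3 at an unadjusted p under 0.05, with *Trim21* at 0.66 (adjusted p = 0.183) and *Fcrls* at 0.77 (adjusted p = 0.306). No share of all genes was computed at that unadjusted threshold, here or for the immunoglobulin genes below. Of the immunoglobulin genes, 3 could be tested and 0 were called by edgeR, with 2 at an unadjusted p under 0.05, *Ighm* at 0.94 (adjusted p = 0.158), *Ighg2c* at 1.33 (0.249) and *Igkc* at 1.55 (0.545). Their list summed to 11.63 to 26.45 CPM in Ntg and 15.89 to 116.1 CPM in *P301S* hippocampi. Markers of other cells moved too: the 6 astrocyte genes summed to 3628 to 4411 CPM in Ntg and 3703 to 7389 CPM in *P301S* hippocampi, and the 5 choroid plexus genes to 434.6 to 3875 and 97.16 to 5495 CPM. Disease-associated microglial genes summed to 148.2 to 204.6 and 138 to 572.3 CPM, and markers of resting microglia to 168.6 to 205.7 and 160.3 to 290.5 CPM. The part of these shifts in the receptor values was not tested.

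Over the 13 hippocampi, which include both genotypes, *Fcgr2b* and *Fcgr3* varied together (r = 0.98), as did *Fcgr3* and *Fcer1g* (r = 0.99). The genes most like *Fcgr1* were *Tlr7* (0.979), *Cd180* (0.979) and *Tlr13* (0.977), those most like *Fcgr2b* were *Rrbp1* (0.985), *Plxdc2* (0.983) and *Ggta1* (0.982), and those most like *Fcgr3* were *Fcer1g* itself, *Ly86* (0.987) and *Ppp1r18* (0.986). *Fcer1g* had *Fcgr3*, *Ly86* (0.986) and *Tent5c* (0.984) as nearest genes, and *Fcgr4* had *Edem1* (0.977), *Wdfy4* (0.977) and *Il10ra* (0.947). *Fcgrt* stood apart, with *Nkd1* (0.908), *Osgin1* (0.889) and *Ppp1r14a* (0.882). *Fcgrt* was thus called neither with tau in culture nor in *P301S* tissue, while *Fcgr2b*, not called with tau in culture, had the largest fitted change of the 5 genes tested in tissue.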

How the data were processed

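The authors deposited 2 tables of counts, whole-number read counts per gene that are not normalised, with 13 hippocampal and 18 microglial libraries. The submitters' processing notes name GRCm38, edgeR and limma without a role. The aligner, the counting tool and its strand setting are not given in the sources used here. The labels name a 3′ mRNA library kit for the samples and the study's methods name other RNA kits, so whether reads cover whole transcripts is unclear.

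Counts were summed per library, genes with low counts were removed (filterByExpr) and libraries were scaled by TMM. P301S was compared with Ntg over 13 mice. For microglia, 1 fit held the 6 groups, with contrasts for each ligand against vehicle, tau against HT-DNA, each genotype difference and each ligand-by-genotype interaction. Tests were edgeR's quasi-likelihood F tests (edgeR 4.0.16, limma 3.58.1, R 4.3.3) with Benjamini-Hochberg adjustment over all genes tested and a threshold of 0.05. The SE is the log2 fold change divided by the square root of F. Intervals and SEs cover spread between libraries. For single genes in hippocampi, two-sided exact permutation tests of log2 CPM ran over 1716 assignments. In microglia, 3 libraries against 3 cannot go below an exact p of 0.10, so no permutation test was run there.

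The text names the 6 genes, up to 4 genes per function list with the smallest p in a comparison, and the 3 genes with the highest Pearson r (log2 CPM, prior count 2). Some genes that this rule picks are not reported here. The genes and lists were chosen with earlier results of these data known. Alternatives were DESeq2 1.42.0, RLE scaling, no low-count filter, a minimum fold, other covariates, separate fits, a replicate block and leaving out each library. Scripts were tested on simulated data. Sequences were compared over 50-base stretches and in promoter windows of 250 bases with Python 3.11.15 and Biopython 1.88. Replicate libraries differed beyond counting noise, with chi-square per degree of freedom of at least 2.32.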

Additional observations from a re-analysis of the deposited data

Results flagged for a closer look

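In 2 of 12 hippocampal groups of values (6 genes in 2 genotypes), the extreme mouse was separated from the others by more than Dixon's 95% critical value, which chance gives in about 1 of 20 groups. *Fcgr2b* stood at 3.86 CPM in Ntg mouse 62 and *Fcgrt* at 22.8 CPM in Ntg mouse 55. Of the 17 interaction terms tested, 6 were called, and 0 of the 5 sex-by-genotype terms in hippocampi were among them. Over all genes, the ligand-by-*Cgas* term was called lower and higher for 3.31% and 3.61% with tau and for 16.6% and 17.4% with HT-DNA. In the 6 called terms, the response to a ligand differed between *Cgas* genotypes. For tau it did so for *Fcgr4*, at -0.75 on the log2 scale (*Cgas*-/- response minus *Cgas*+/+ response). For HT-DNA it did so for *Fcgr4* at -2.15, *Fcgr1* at -2.05, *Fcgr3* at -0.32, *Fcer1g* at -0.19 and *Fcgr2b* at -0.17.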

How the results depend on the processing

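Over the alternatives, 745 results for a single gene kept their direction and side of the threshold, 38 lost a call, 16 gained one and 23 changed sign. In hippocampi, the 2 calls among 5 genes became 4 by DESeq2 and 3 with RLE scaling (*Fcer1g* gained, adjusted p = 0.0493). With no low-count filter they became 4 of 6 genes, *Fcgr4* among them. There were 4 with the mean level of the resting-microglia markers as covariate and 1 with sex as covariate (*Fcgr3* lost, adjusted p = 0.0632). All genes called numbered 249 in the reported test, 910 by DESeq2 and 259 with RLE scaling. They numbered 341 of 30055 with no filter, 397 with the marker covariate and 138 with sex. Leaving out a mouse gave 0 to 5, the 5 including *Fcgr4*, with 14 to 946 of all genes called. *Fcgr4*, not tested in the full set, was 3.34 without a filter (adjusted p = 0.0168). When a mouse was left out, it passed the filter only without *P301S* mouse 43 or 63, which held 9 counts each. Its values there, 3.55 and 3.56, followed the removal of a low *P301S* mouse and are not counted as support for a difference. At a minimum log2 fold change of 1, calls among the 6 genes were 1 for tau and 2 for HT-DNA in *Cgas*+/+ microglia, 1 for tau against HT-DNA, 0 for tau in *Cgas*-/-, and 1, 2 and 2 for genotype with vehicle, tau and HT-DNA, which follows from the size limit. In that order, 467, 1105, 447, 374, 1365, 1421 and 2482 of all 13675 genes were called. Leaving out a library gave 4 to 5 calls for HT-DNA in *Cgas*+/+, 4 to 5 for its interaction, 4 to 6 for genotype with HT-DNA and 2 to 3 for tau in *Cgas*-/-, and the count did not move in the other comparisons. All genes called in these fits numbered 5856 to 6184, 4242 to 4513, 8221 to 8375 and 1825 to 2288, respectively. The replicate numbers did not pair the libraries (same-number correlations of -0.085 to 0.0823). With the replicate block, HT-DNA by genotype had 4 calls (4613 of all 13675 genes), *Fcgr2b* being at -0.17 (adjusted p = 0.0506), and the other counts among the 6 genes did not move. *Fcgr2b* with HT-DNA in *Cgas*+/+ was called by DESeq2 (adjusted p = 0.00514), RLE scaling (0.0122) and a fit of the compared groups only (0.0421), and without *Cgas*+/+ vehicle 3 (0.0177) or HT-DNA 2 (0.0459). Its HT-DNA interaction was lost with no filter (0.0536) and without *Cgas*+/+ vehicle 1 or 2, *Cgas*+/+ HT-DNA 1 or 3, *Cgas*-/- vehicle 1 or 2, or *Cgas*-/- HT-DNA 3 (adjusted p up to 0.151). For genotype with HT-DNA, *Fcgr3* was lost without *Cgas*+/+ HT-DNA 2 (0.0545) or 3 (0.0643) or *Cgas*-/- HT-DNA 3 (0.0900), *Fcgr2b* without *Cgas*-/- HT-DNA 3 (0.0976) and *Fcgrt* without *Cgas*+/+ HT-DNA 2 (0.0588). *Fcer1g* with tau in *Cgas*-/- was lost without vehicle 3 (0.0592) or tau 1 (0.0502).

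Every value that changed sign was near 0 and not called. *Fcgrt* with HT-DNA in *Cgas*+/+ was 0.0284 by DESeq2, 0.0285 with RLE scaling and 0.0114 in the fit of the compared groups, and -0.0782 to 0.0530 when a library was left out (above 0 without vehicle 3, HT-DNA 1 or HT-DNA 3). Its HT-DNA interaction was -0.00867, -0.00873 and -0.0321 in those fits and -0.0475 to 0.101 when a library was left out (below 0 without *Cgas*+/+ vehicle 3 or HT-DNA 1, or *Cgas*-/- HT-DNA 1). Leaving out a library moved *Fcgrt* between -0.0910 and 0.0401 for tau against HT-DNA (above 0 without HT-DNA 2) and between -0.0140 and 0.0682 for HT-DNA in *Cgas*-/- (below 0 without vehicle 3 or HT-DNA 1). In the tau interaction it moved *Fcgr1* between -0.136 and 0.0586 (above 0 without vehicle 2 of either genotype) and *Fcer1g* between -0.0333 and 0.0161 (above 0 without vehicle 2 of either genotype or *Cgas*-/- tau 2 or 3). *Fcgr4* in *Cgas*-/- moved between -0.00148 and 0.274 with tau and between -0.0856 and 0.1896 with HT-DNA, below 0 without vehicle 3. The causes were not tested. Low counts limit *Fcgr4* in hippocampi.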
